A study of Mus musculus with 60 samples.

Results

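Cumulus nuclear transfer (NTC) embryos were compared with naturally fertilised (in vivo) embryos at the 1-cell stage, across all genes of the expression table. The comparison took the 3 NTC 1-cell libraries and the 3 in vivo 1-cell libraries, 6 of the 60 libraries of the study, as their column names give them. Each library was made from 1 mouse embryo that had been chosen by its morphology. In vivo embryos came from superovulated C57BL/6 females mated with DBA2 males and were collected at the pronuclear stage. For NTC embryos, metaphase oocytes of superovulated BDF1 females (the F1 of C57BL/6 and DBA2) aged 8 to 10 weeks lost their spindle and received the nucleus of a BDF1 cumulus cell. They were activated with strontium and cytochalasin B in the presence of Scriptaid, a histone deacetylase inhibitor, and then cultured in vitro in G1 medium. Nuclear transfer, the activation treatment, the drug, the culture and the strain of the egg's mother (BDF1 against C57BL/6) went together, and their parts in any difference cannot be told apart. The study's methods give no hour of collection for either group, so the age of the embryos may differ as well. Donor nuclei came from females, whereas the sex of the in vivo embryos is not stated. Neither age nor sex can be separated from the other factors. Of 27238 genes in the table, 10834 had a mean of at least 0.5 RPKM over the 6 libraries and were tested. RPKM (reads per unit of transcript length, relative to all reads counted on genes) gives a transcript's share of a library, not its amount per embryo. Donor cumulus cells (CCs), NT embryos made with nuclei of embryonic fibroblasts (NTM) and 2-cell embryos, 3 libraries each, are given beside the results for reference.

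A 1-cell mouse embryo lives largely on RNA that the oocyte stored during its growth. A first, minor wave of transcription begins in the pronuclei, the major wave follows in the 2-cell embryo, and many maternal transcripts are degraded in the same period. After fertilisation the sperm nucleus exchanges protamines for histones of the egg, and the oocyte form of linker histone H1 gives way to somatic forms. In an NT embryo the incoming chromatin is that of a differentiated cell, carries somatic histones and its own gene expression state, and there is no sperm.

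The 6 libraries held 10118230 to 18145997 reads on genes (exact permutation test between the groups, two-sided, p = 0.7), and 3 reads on a transcript of 2000 nt equalled 0.0827 to 0.148 RPKM. The in vivo libraries had 9491, 12187 and 12593 genes above 0, and the NTC libraries 14021, 14075 and 14270. The difference was 2698 genes and the groups did not overlap, with p = 0.1 in the exact permutation test, the smallest p that 3 against 3 libraries can give. One library stood apart from its group. In vivo replicate 1 had a Pearson correlation of 0.760 across genes with each of the other in vivo libraries, which correlated with each other at 0.917, whereas NTC libraries correlated at 0.936 to 0.946 with each other (genes are not independent replicates). Mitochondrial genes took 13.4% of its reads and the 100 most read genes 44.8%, against 4.71% to 6.78% and 25.4% to 27.7% in the other 5 libraries. Counts of genes are therefore given with and without in vivo replicate 1.

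**Figure D1:**
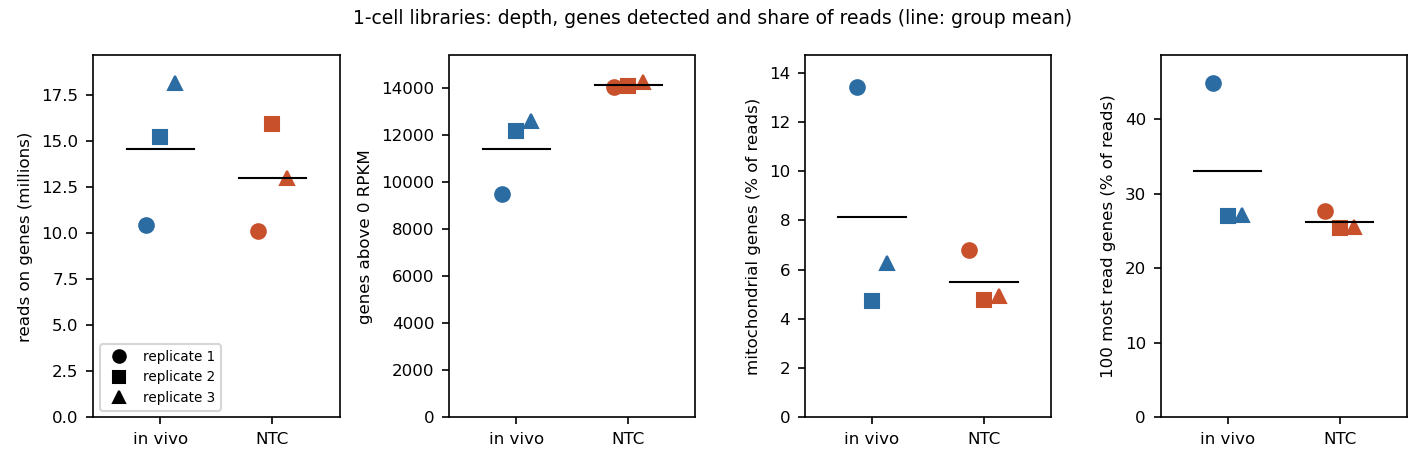
Reads on genes, genes above 0 RPKM, share of reads on mitochondrial genes and share of reads on the 100 most read genes in each 1-cell library. Points are libraries, symbols are replicates and lines are group means. In vivo replicate 1 has the fewest genes (9491) and the largest shares, and the 3 NTC libraries lie between 14021 and 14270 genes.

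The labels were checked against markers. The 10 egg markers, among them the zona protein Zp3 and the growth factor Gdf9, summed to 7562 to 20305 RPKM in vivo and 5296 to 6213 RPKM in NTC embryos, against 9.92 to 11.96 RPKM in CCs. The largest sum, in in vivo replicate 1, was mostly Btg4 (18079.9 RPKM). Every other egg marker was lower there than in the other in vivo libraries. NTC values lay above all in vivo values for Bmp15, Nlrp5, Ooep and Padi6, below them for Oosp1, Zar1 and Btg4, and overlapped for Zp3, Gdf9 and Mos. The 12 markers of cumulus cells summed to 0.0390 to 1.59 RPKM in vivo and to 0, 3.13 and 5.47 RPKM in NTC embryos, against 1407 to 1750 RPKM in CCs. Has2, 1 of the 12, was at 0 in CCs and had 1.46 RPKM in in vivo replicate 2. Amhr2, Foxl2 and Inha were at 0 in all 6 embryos and averaged 7.39, 0.553 and 273 RPKM in CCs. Xist, which silences an X chromosome in female somatic cells, was listed at 0 in all 6 embryos and averaged 2.56 RPKM in CCs. The 8 fibroblast markers summed to at most 2.53 RPKM in any of the 6 embryos. Of the 4 sperm markers in the table, Prm1 and Odf1 were listed at 0 in all 6 embryos, and Prm2 had 0 to 1.23 RPKM in vivo and 1.66 to 1.72 RPKM in NTC embryos. In whole libraries such a level does not tell few contaminating cells from little RNA of the donor cell.

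Differential expression was measured with limma on log2(RPKM + 1). A gene was called at a Benjamini-Hochberg adjusted p under 0.05 and a log2 difference (NTC minus in vivo) of at least 1 in size. This found 126 genes, 1.16% of those tested, with 107 higher in NTC embryos (0.988%) and 19 lower (0.175%). At an unadjusted p under 0.05 there were 2517 genes (23.2%), of which 1893 were higher (17.5%) and 624 lower (5.76%). The values of the groups did not overlap for 3629 genes (33.5%), with NTC above for 2623 (24.2%) and below for 1006 (9.29%), and all 126 called genes were among them. The median log2 difference over all genes was 0.34, and it was 0.11 after median-ratio scaling.

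The number of genes depended on single libraries. Without in vivo replicate 1, 1524 of 10971 genes were called (13.9%), 995 higher (9.07%) and 529 lower (4.82%), and the median over all genes was 0.15. All 126 genes were also called there in the same direction. Without in vivo replicate 2 there were 6 genes, without in vivo replicate 3 there were 115, and without any one of the NTC libraries there was 1, Pnpla3. Each of the 126 genes kept its sign in all 6 of these fits. This had to be so, because their groups did not overlap, and it is no test of the genes.

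**Figure D2:**
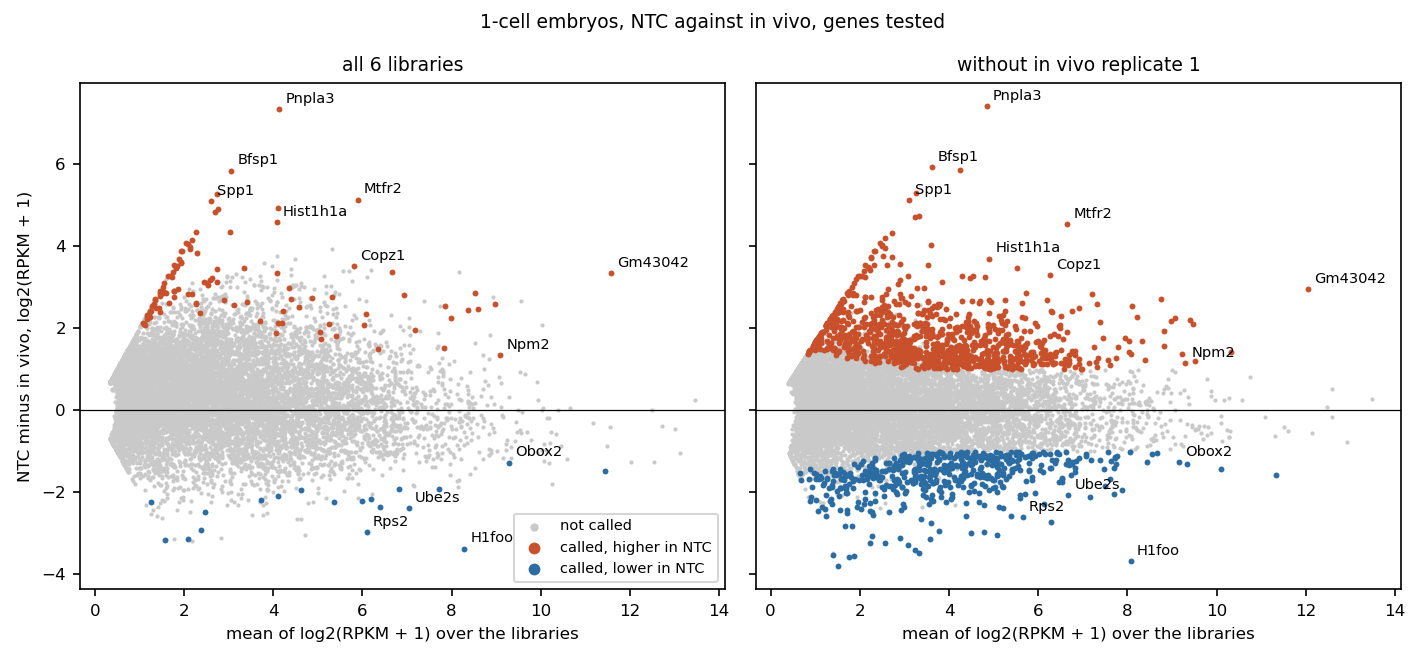
Log2 difference between NTC and in vivo 1-cell embryos (log2(RPKM + 1) scale) against the mean over the libraries, for all genes tested, with 6 libraries on the left and without in vivo replicate 1 on the right. Red points are called higher in NTC (107 and 995 genes) and blue points lower (19 and 529).

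Genes higher in NTC embryos were mostly low in vivo. Their median level was 0.359 RPKM in vivo and 16.6 RPKM in NTC embryos, 60 of the 107 averaged under 1 RPKM in vivo, and log2 differences ran from 1.34 to 7.34 with a median of 2.84. A gene at such a level in one group passes the filter through the other group, so these counts describe the called genes and are no test of them.

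Pnpla3 had the largest difference of all. It encodes adiponutrin, a lipase and acyltransferase of lipid droplets, and lies at chr15:84167837-84187236 (GRCm38). The in vivo libraries had 0.536, 0.397 and 0.238 RPKM and the NTC libraries 211, 219 and 243 RPKM, a 575-fold ratio of means (log2 difference 7.34 ± 0.32 (SE), adjusted p = 0.000224). CCs averaged 0.179 RPKM. NTM 1-cell embryos had 132 to 170.0 RPKM, in vivo 2-cell embryos 0 to 0.683 RPKM and NTC 2-cell embryos 8.34 to 14.5 RPKM. The transcript was thus high in all 3 NTC 1-cell libraries and near 0 in the in vivo embryo and in the donor cell. Gpat3, which catalyses the first step of triacylglycerol synthesis, had 0.109, 0.0563 and 0.0472 RPKM in vivo and 47.0, 40.3 and 35.0 RPKM in NTC embryos (log2 difference 5.28 ± 0.39, adjusted p = 0.0035). NTM embryos had 7.12 to 18.1 RPKM of Gpat3, and CCs averaged 7.30 RPKM.

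Bfsp1, which encodes the lens filament protein filensin, was likewise near 0 in both the fertilised embryo and the donor cell. It had 0.240, 0.0275 and 0.0461 RPKM in vivo and 66.2, 49.6 and 73.3 RPKM in NTC embryos (log2 difference 5.84 ± 0.38, adjusted p = 0.00241). CCs averaged 0.00442 RPKM, NTM embryos had 13.7 to 25.9 RPKM, and NTC 2-cell embryos had 135 to 272 RPKM. In vivo 2-cell embryos had at most 0.112 RPKM. In all, 7 of the 107 genes averaged under 1 RPKM in CCs and in every later in vivo stage. These were Bfsp1, the defensin gene Defb48, Gsto2 (a glutathione transferase), Kctd21, Mamdc2, Gm28363 and the pseudogene Gm44988. The same share over all genes tested was not computed. NTM 1-cell embryos also had these transcripts, at means of 1.54 (Kctd21) to 20.7 RPKM (Bfsp1). NTM means were above NTC means for Gsto2, Mamdc2 and Gm28363 and below them for the rest. Defb48 was at 0 in all in vivo libraries and had 10.7, 19.3 and 19.1 RPKM in NTC embryos. Against 3 reads per library this was at least 33.7-fold higher.

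Mtfr2, a regulator of mitochondrial fission, reached the highest NTC level among the 15 genes with the largest positive differences. It had 3.36, 13.3 and 15.3 RPKM in vivo and 306, 432 and 332 RPKM in NTC embryos (log2 difference 5.14 ± 0.51, adjusted p = 0.0095), and 387 to 585 RPKM in NTM embryos. Tceal8, an X-linked gene named for its likeness to a transcription elongation factor, had 10.3, 1.51 and 0.0860 RPKM in vivo and 86.0, 65.8 and 151 RPKM in NTC embryos (4.93 ± 0.81, adjusted p = 0.0408). Its standard error was the largest among the 107 higher genes, and its NTM values ran from 1.02 to 76.4 RPKM. Gm15486, annotated antisense within Sec16b, had 0, 0.326 and 0.456 RPKM in vivo and 33.4, 44.0 and 32.5 RPKM in NTC embryos (4.90 ± 0.40, adjusted p = 0.00553). Because the strand of the counting is not given in the sources used here, its reads and those of Sec16b cannot be told apart. Copz1, a subunit of the COPI vesicle coat, had 11.2, 13.9 and 24.3 RPKM in vivo and 213, 175 and 185 RPKM in NTC embryos (3.52 ± 0.35, adjusted p = 0.0095), with 18.9 to 40.9 RPKM in NTM embryos.

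**Figure D3:**
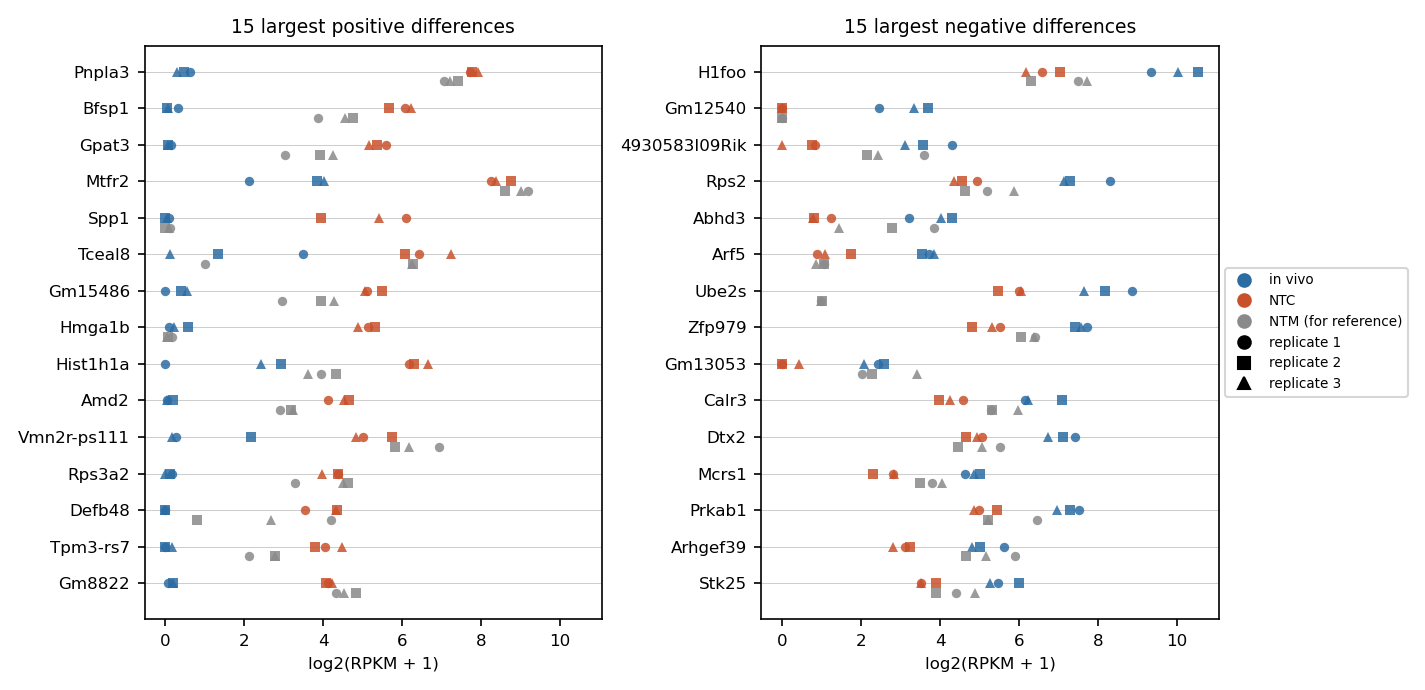
Log2(RPKM + 1) in each 1-cell library for the 15 called genes with the largest positive and the 15 with the largest negative differences. Blue points are in vivo, red points NTC and grey points NTM embryos, with symbols for replicates. Blue and red points do not overlap for any of these 30 genes, and Pnpla3 and H1foo have the largest differences (7.34 and -3.37).

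Copies and pseudogenes were frequent among the higher genes. Of the 107, 27 (25.2%) had another gene of at least 95% identity over at least 50% of the transcript, against 585 (5.40%) of all genes tested. Pseudogenes were 17 (15.9%) against 366 (3.38%), and protein-coding genes 77 (72.0%) against 9584 (88.5%). Reads of such genes can belong to their copy. Hmga1b, 99.8% identical to the chromatin protein gene Hmga1, had 0.0589, 0.485 and 0.169 RPKM in vivo and 34.4, 39.0 and 28.6 RPKM in NTC embryos (4.82 ± 0.40, adjusted p = 0.00553). Its NTM values were 0.0373 to 0.130 RPKM and the CC mean 264 RPKM. Amd2, 99.6% identical to the polyamine enzyme gene Amd1, had 0.0299, 0.144 and 0.0344 RPKM in vivo and 16.5, 24.3 and 21.9 RPKM in NTC embryos (4.34 ± 0.41, adjusted p = 0.0095). The pseudogenes Rps3a2 and Gm8822 (98.8% identical to the actin-related gene Actr3) were at 0.141 RPKM or less in vivo and had 14.8 to 19.8 RPKM in NTC embryos. Tpm3-rs7, a tropomyosin-related gene without such a copy, had at most 0.131 RPKM in vivo and 12.9 to 21.3 RPKM in NTC embryos. Vmn2r-ps111, within a cluster of vomeronasal receptor genes, had 0.203, 3.49 and 0.117 RPKM in vivo and 31.5, 52.6 and 27.5 RPKM in NTC embryos. Values of genes with a near-identical copy are uncertain as levels of that copy.

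The levels in the donor cells were set beside those in the embryos. CCs averaged at least 1 RPKM for 66 of the 107 higher genes (61.7%), a share near that of all genes tested (61.4%). For 8 of the 107, CCs averaged at least 10 times the NTC mean, namely Spp1, Ier3, Gm26809, Gm12840, Gm13394, Rps3a2, Gm8730 and 2310011J03Rik. The same share over all genes tested was not computed, so the count only describes these genes. Gm12840, Gm13394, Rps3a2 and Gm8730 have near-identical copies. Rps3a2 and Gm8730 averaged 18.2 and 11.0 RPKM in NTC embryos, 18.1 and 19.7 RPKM in NTM 1-cell embryos and 16.2 and 6.81 RPKM in in vivo 2-cell embryos. Spp1 (osteopontin, a secreted phosphoprotein) was the most abundant of the 8 in CCs, at a mean of 21867 RPKM. It had 0.0581, 0 and 0.0334 RPKM in vivo (2 reads in all) and 67.7, 14.3 and 41.8 RPKM in NTC embryos (5.11 ± 0.60, adjusted p = 0.0155). NTM 1-cell embryos had 0 to 0.0857 RPKM and NTC 2-cell embryos 15.9 to 41.0 RPKM. The highest Spp1 value, 67.7 RPKM, was in NTC replicate 1, in which all 12 cumulus markers were at 0. Other transcripts abundant in CCs were present in that library, such as Bex4 (12.6 RPKM) and Tceal9 (7.24 RPKM), and others such as Tmem86a were at 0. Ier3, an immediate early gene, was at 0 in all in vivo and all NTM libraries and had 4.28, 2.94 and 3.12 RPKM in NTC embryos, at least 18.0-fold higher than 3 reads per library. It averaged 1635 RPKM in CCs.

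Other cumulus transcripts were followed in the same way. Of 80 genes that averaged at least 500 RPKM in CCs, 22 were under 0.5 RPKM in all 3 in vivo 1-cell libraries. All 3 NTC libraries were above all in vivo libraries for 10 of these 22 and at 1 RPKM or more for 5, which were Spp1, Ier3, Gm13394, Ctsl (cathepsin L) and Bex4. All 3 NTM libraries reached 1 RPKM for 1 of the 22, Gm13394. That gene is a pseudogene with a copy of 96.1% identity, Gm47854, so its reads can belong to the copy. Ctsl had 2.61, 1.37 and 2.10 RPKM in NTC embryos and Bex4 had 12.6, 4.73 and 1.19 RPKM, and both were at 0 in vivo and in NTM embryos. Neither was called with 6 libraries (adjusted p = 0.0716 and 0.096), and both were called without in vivo replicate 1 (adjusted p = 0.035 and 0.042). The 22 genes were picked for low in vivo values, which by itself favours NTC values above them. Over all genes tested, which were not picked in this way, NTC was above without overlap for 24.2%. In NTC embryos these 5 transcripts stood at 0.189% to 1.02% of their CC level. Some were also found in normal embryos a stage later. In vivo 2-cell embryos averaged 34.3 RPKM of Ctsl and 3.08 RPKM of Ier3, but 0.179 RPKM of Gm13394 and 0 RPKM of Spp1.

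Several abundant transcripts without a known protein were higher in NTC embryos. Gm43042, a long noncoding RNA gene at chr5:59569702-59574242 (GRCm38), was the most abundant of the 126 called genes by its mean. It had 559, 1045 and 1474 RPKM in vivo and 9788, 9971 and 9246 RPKM in NTC embryos (3.34 ± 0.33, adjusted p = 0.0095), against 977 to 3654 RPKM in NTM embryos. In vivo 2-cell embryos had 2976 to 8778 RPKM and NTC 2-cell embryos 28161 to 41093 RPKM. NTC 1-cell embryos were thus above the in vivo 2-cell range for this transcript. Gm36958 had 120.5, 226 and 321 RPKM in vivo and 1304, 1299.9 and 1122 RPKM in NTC embryos, with 620.3 to 2050.0 RPKM in in vivo 2-cell embryos. Gm36976, Gm38110 and Gm42553 were likewise 4.86 to 5.61 times higher in NTC embryos by their means. Each of these 5 genes has a copy elsewhere of at least 95% identity. Gm5039, annotated as protein-coding, was at 0 in the in vivo 1-cell libraries and had 6.78 to 8.41 RPKM in NTC 1-cell embryos and 8.89 to 791 RPKM in in vivo 2-cell embryos. The same in vivo 1-cell libraries stand beside the NTC and the 2-cell values here, so the 2-cell levels are given for reference and not as a second test.

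The 19 genes lower in NTC embryos had a median level of 138 RPKM in vivo and 23.9 RPKM in NTC embryos, and log2 differences of -1.28 to -3.37. H1foo, the oocyte-specific linker histone H1, fell most. It had 652, 1481 and 1045 RPKM in vivo and 94.5, 130.1 and 71.8 RPKM in NTC embryos, 10.7-fold lower by the means (log2 difference -3.37 ± 0.36, adjusted p = 0.0117). NTM embryos had 77.6 to 212 RPKM. In vivo 2-cell embryos had 127 to 162 RPKM and NTC 2-cell embryos 88.8 to 165 RPKM, so the groups overlapped a stage later.

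A somatic linker histone gene rose. Hist1h1a, a replication-dependent linker histone, had 0, 6.65 and 4.38 RPKM in vivo and 71.7, 77.4 and 100.2 RPKM in NTC embryos (4.59 ± 0.73, adjusted p = 0.0397). The NTM values of 11.2 to 19.1 RPKM lay between the groups, CCs were at 0, and in vivo 2-cell embryos had 0.0942 to 19.1 RPKM. No other linker histone was called. H1f0, the replication-independent somatic form, had 3.06, 11.7 and 14.96 RPKM in vivo and 22.3, 21.2 and 32.1 RPKM in NTC embryos (1.46 ± 0.56, adjusted p = 0.175), and Hist1h1d stayed at or below 1.34 RPKM. Hist1h1c, Hist1h1e, Hist1h1b and H1fx were too low to be tested. Npm2, the nucleoplasmin that helps to remodel sperm chromatin in the egg, was higher in NTC embryos, with 263, 367 and 408 RPKM in vivo and 952, 785 and 867 RPKM in NTC embryos (1.34 ± 0.24, adjusted p = 0.0495). It overlaps Xpo7 on the same strand, so some reads may belong to that gene.

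The 250 bases before the start sites of both linker histone genes and of Pnpla3 are shown because these genes carry the largest differences in each direction and the linker histone contrast. They are RefSeq promoters of build GRCm38.p6 on the plus strand, and all 3 genes were found there (H1foo as H1f8, Hist1h1a as H1f1). Capitals mark TATAAA and CCAAT or their reverse complements, searched on both strands.
H1foo (chr6:115944681-115944930): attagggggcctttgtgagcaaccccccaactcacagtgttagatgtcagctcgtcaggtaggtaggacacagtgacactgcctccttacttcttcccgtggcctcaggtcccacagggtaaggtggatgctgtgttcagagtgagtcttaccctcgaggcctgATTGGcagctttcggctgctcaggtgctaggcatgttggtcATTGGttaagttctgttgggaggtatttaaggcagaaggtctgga
Hist1h1a (chr13:23763418-23763667): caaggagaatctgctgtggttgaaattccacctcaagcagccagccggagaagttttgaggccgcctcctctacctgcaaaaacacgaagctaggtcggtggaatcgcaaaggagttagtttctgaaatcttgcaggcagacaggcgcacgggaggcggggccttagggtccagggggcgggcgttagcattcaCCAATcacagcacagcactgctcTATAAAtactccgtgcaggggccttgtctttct
Pnpla3 (chr15:84167566-84167815): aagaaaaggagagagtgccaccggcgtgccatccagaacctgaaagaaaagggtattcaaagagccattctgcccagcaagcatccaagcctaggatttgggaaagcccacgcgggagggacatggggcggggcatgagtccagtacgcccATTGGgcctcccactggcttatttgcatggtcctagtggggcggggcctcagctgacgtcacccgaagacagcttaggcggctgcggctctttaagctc
The Hist1h1a window holds 1 TATAAA and 1 CCAAT, the H1foo window 2 CCAAT and no TATAAA, and the Pnpla3 window 1 CCAAT. Over all 32851 promoter windows of this length, 12.4% hold TATAAA and 33.8% hold CCAAT. Neither TAATTA (4.84% of windows) nor CACGTG (6.02%) occurs in the 3 windows. These are descriptions of letters and not of bound factors.

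Among the other lower genes, Ube2s, the E2 enzyme that extends ubiquitin chains for the anaphase-promoting complex, had 462, 288 and 200.4 RPKM in vivo and 62.9, 43.5 and 65.9 RPKM in NTC embryos (-2.38 ± 0.36, adjusted p = 0.0334). NTM embryos had 0.978 to 1.03 RPKM. Ube2s overlaps the ribosomal protein gene Rpl28 on the other strand. Obox2, an oocyte-specific homeobox gene, had 999, 1049 and 871 RPKM in vivo and 327, 478 and 409 RPKM in NTC embryos (-1.28 ± 0.23, adjusted p = 0.048). It overlaps Obox1 on the same strand. Rps2, a protein of the small ribosomal subunit with a copy of 99.5% identity, had 319, 156 and 140.2 RPKM in vivo and 29.8, 22.4 and 19.4 RPKM in NTC embryos (-2.97 ± 0.39, adjusted p = 0.0204). CT010467.1, annotated as ribosomal RNA, had 4048, 4731 and 5204 RPKM in vivo and 1422, 1781 and 1861 RPKM in NTC embryos (-1.47 ± 0.19, adjusted p = 0.022), and overlaps Gm42418 and AY036118. None of these 4 genes had overlapping groups.

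The remaining lower genes had varied roles. Prkab1, a regulatory subunit of the AMP-activated kinase, had 183, 157 and 124 RPKM in vivo and 30.9, 42.8 and 28.3 RPKM in NTC embryos. Bpgm, the bisphosphoglycerate mutase, had 451, 489 and 308 RPKM in vivo and 133, 97.1 and 96.8 RPKM in NTC embryos. The zinc finger gene Zfp979 had 209, 170.1 and 189.9 RPKM in vivo and 44.9, 27.3 and 39.0 RPKM in NTC embryos, and had 240.3 to 385 RPKM in in vivo 2-cell embryos. Calr3 (a calreticulin of germ cells), Dtx2 (an E3 ubiquitin ligase), Stk25 (a kinase), Mcrs1, Arhgef39 and Smagp were 3.97-fold to 5.16-fold lower by their means. Arf5, a small GTPase of vesicle traffic, and Abhd3, a phospholipase, fell to 2.37 RPKM or less in every NTC library. At low levels, 4930583I09Rik and Gm13053 fell to at most 0.784 RPKM in NTC embryos. Gm12540, a pseudogene, was at 0 in NTC embryos and had 4.501, 11.95 and 9.16 RPKM in vivo, at least 11.4-fold lower than in vivo against 3 reads per library. It was also at 0 in CCs, NTM 1-cell embryos and 2-cell embryos of the in vivo and NTC groups.

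**Figure D4:**
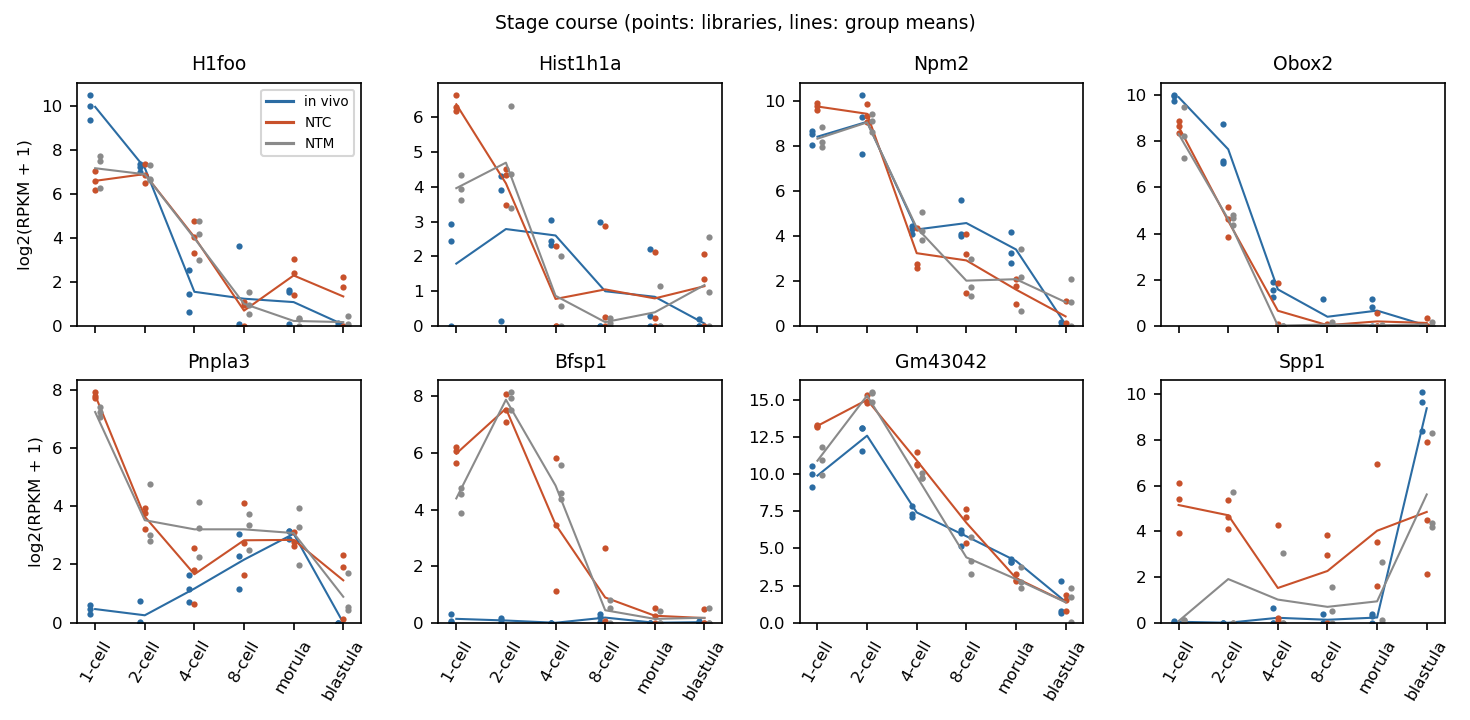
Log2(RPKM + 1) of 8 genes in in vivo (blue), NTC (red) and NTM (grey) embryos from the 1-cell stage to the blastula. Points are libraries and lines group means. H1foo and Obox2 start higher in vivo, whereas Pnpla3, Bfsp1, Hist1h1a and Gm43042 start higher in NTC embryos, and Spp1 is present in NTC but near 0 in in vivo and NTM 1-cell embryos.

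Known pathways were followed in 32 gene lists, which held 840 genes tested. Of these, 14 were higher and 4 lower with 6 libraries, where 0.988% and 0.175% of all genes were. Without in vivo replicate 1, 100 were higher and 67 lower, where 9.07% and 4.82% of all genes were. Counts of members in each list are to be read against these shares, since lists differ in size. Medians below are log2 differences and are to be read against 0.34 over all genes, or against 0.15 where in vivo replicate 1 was left out.

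Of 52 translation initiation factors tested, 3 were higher and 0 lower, with a median of 0.45, and without in vivo replicate 1 12 of 51 were higher and 4 lower. Eif4h, a partner of the mRNA helicase Eif4a, had 0.862, 2.996 and 2.88 RPKM in vivo and 29.4, 35.4 and 35.1 RPKM in NTC embryos (3.48 ± 0.44, adjusted p = 0.0163). Eif1ax, which helps the ribosome to scan for the start codon, had 15.1, 17.7 and 19.7 RPKM in vivo and 57.9, 69.6 and 55.2 RPKM in NTC embryos. Eif3j2 was also called, but is 99.4% identical to Eif3j1. The helicase Eif4a1 had 410.1, 239 and 183 RPKM in vivo and 60.8, 76.4 and 84.9 RPKM in NTC embryos, and was called lower without in vivo replicate 1 (adjusted p = 0.0035) but not with it (adjusted p = 0.0582). Of 55 ribosomal protein genes tested, Rpl7l1 was higher and Rps2 lower, with a median of 0.20, and without in vivo replicate 1 8 of 52 were higher and 4 lower. Of 46 genes of snRNPs and the spliceosome, Prpf3 was higher (0.913, 0.929 and 1.11 RPKM in vivo, 8.29, 14.0 and 11.2 RPKM in NTC embryos) and none was lower, with a median of 0.31. The splicing list had 3 higher and 3 lower without in vivo replicate 1.

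Stored transcripts of the egg were followed in several lists. Of 38 tested genes of the zona and the oocyte, Npm2 was higher and H1foo lower with 6 libraries. Without in vivo replicate 1 the counts were 6 higher (15.8%) and 9 lower (23.7%), against 9.07% and 4.82% of all genes. Zar1, which binds maternal mRNA, had 57.8, 228 and 252 RPKM in vivo and 29.8, 44.9 and 33.4 RPKM in NTC embryos, while its relative Zar1l had 1.28, 19.2 and 30.3 RPKM in vivo and 107, 110.1 and 109 RPKM in NTC embryos. With 6 libraries neither was called (adjusted p = 0.101 and 0.0982), and both were called without in vivo replicate 1 (adjusted p = 0.00033 and 0.0012). Gdf9, an oocyte growth factor, had 95.9, 729 and 382 RPKM in vivo and 167, 131 and 116 RPKM in NTC embryos, so that in vivo replicate 1 lay below the NTC range and the other in vivo libraries above it. Of 11 genes of the subcortical maternal complex, a protein lattice of the egg, none was called with 6 libraries (median 0.07). Without in vivo replicate 1 Padi6 was higher and Tle6 and Nlrp2 lower, with a list median of -0.44 against 0.15 over all genes. Padi6 had 16.1, 113 and 147 RPKM in vivo and 422, 444 and 389 RPKM in NTC embryos. Tle6 had 24.3, 238 and 156 RPKM in vivo and 82.0, 84.6 and 76.7 RPKM in NTC embryos, and Nlrp2 had 17.5, 43.0 and 40.2 RPKM in vivo and 21.8, 14.7 and 9.35 RPKM in NTC embryos, so that in vivo replicate 1 lay below or within the NTC range for both. Of 36 genes of maternal mRNA decay none was called, and without in vivo replicate 1 there were 6 higher and 6 lower. Btg4, which brings the deadenylase to maternal mRNA, was the most abundant by its mean, at 18079.9, 4209 and 3536 RPKM in vivo and 2751, 3067 and 2349 RPKM in NTC embryos. Of 32 genes of egg activation, Calm2, a calmodulin gene, was higher (15.9, 19.98 and 16.3 RPKM in vivo, 76.9, 85.03 and 71.8 RPKM in NTC embryos), and without in vivo replicate 1 there were 3 higher and 2 lower.

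Of 17 tested genes listed for the first waves of zygotic transcription, Eif1ax was higher and Obox2 lower, with a median of 0.41, and without in vivo replicate 1 there were 4 higher and 3 lower. Obox2 averaged 973 RPKM in in vivo 1-cell and 237 RPKM in in vivo 2-cell embryos, so its lower level is not read as zygotic transcription. Duxf3 and Zfp352, at means of 27.2 and 138 RPKM in in vivo 2-cell embryos, were too low here to be tested. Zscan4c, Zscan4d and Zscan4f were tested and not called. Obox5 and Obox1, the most abundant besides Obox2, were not called (log2 differences of -1.01 and -0.20). Of 19 Obox and pluripotency genes Obox2 was lower and none was higher, and without in vivo replicate 1 there were 1 higher and 2 lower. Klf17 had 512, 599.8 and 682 RPKM in vivo and 1189, 1038 and 1060.2 RPKM in NTC embryos without being called.

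Chromatin lists held 30 tested histone variants and chaperones, in which Npm2 was higher and H1foo lower, and 10 clustered histone genes, in which Hist1h1a was higher. Their medians were -0.14 and 0.59, and without in vivo replicate 1 the counts were 4 higher and 3 lower of 30, and 1 higher and 0 lower of 9. None of 35 genes of histone acetylation and none of 41 genes of histone and DNA methylation was called with 6 libraries (medians 0.21 and 0.21). Without in vivo replicate 1 there were 2 higher and 2 lower of 36, and 3 higher and 4 lower of 41. Zfp57, which guards imprints against demethylation, had 50.7, 717 and 706 RPKM in vivo and 1837, 1810.1 and 2055 RPKM in NTC embryos, and was called higher without in vivo replicate 1 (adjusted p = 0.0007) but not with it (adjusted p = 0.149). Its cofactor Trim28 had 1.02, 14.6 and 12.7 RPKM in vivo and 4.89, 4.42 and 1.88 RPKM in NTC embryos, and Dppa3, which protects the maternal genome from demethylation, had 149, 59.5 and 77.8 RPKM in vivo and 27.5, 25.8 and 29.2 RPKM in NTC embryos. Both were called lower without in vivo replicate 1 (adjusted p = 0.021 and 0.0067) but not with it (adjusted p = 0.603 and 0.0764). None of 19 canonical imprinted genes was called, and without in vivo replicate 1 there was 1 higher of 21. Of the genes whose imprint rests on H3K27me3, Gab1 was the one tested (0.0394, 0 and 0 RPKM in vivo, 0.325, 1.65 and 3.60 RPKM in NTC embryos) and was not called.

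Of 60 cyclins, kinases and checkpoint genes, Ube2s was lower and none was higher, whereas without in vivo replicate 1 there were 7 higher and 8 lower of 59. Cyclin B1 (Ccnb1), the most abundant by its mean, had 495, 673 and 597 RPKM in vivo and 516, 554 and 547 RPKM in NTC embryos, which overlapped. Of 46 DNA replication genes, Gins4, part of the replicative helicase, was higher (22.0, 28.5 and 47.3 RPKM in vivo, 111, 159 and 139.7 RPKM in NTC embryos), and without in vivo replicate 1 there were 9 higher and 3 lower. Of 39 DNA damage genes, Xrcc6, the Ku70 subunit, was higher (1.18, 1.54 and 1.10 RPKM in vivo, 10.7, 9.71 and 11.6 RPKM in NTC embryos), and without in vivo replicate 1 there were 3 higher and 3 lower. None of 17 Bcl2 family and caspase genes and none of 29 autophagy genes was called with 6 libraries (medians -0.09 and 0.54), and without in vivo replicate 1 there were 1 higher and 0 lower, and 1 higher and 3 lower.

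Among stress and immune genes, Ier3 was the one of 30 immediate early and heat shock genes that was called, and 4 of 32 were higher and 1 lower without in vivo replicate 1. The median of this list was 1.01 with 6 libraries and 0.43 without in vivo replicate 1. Hsph1, a heat shock protein, had 0.0527, 4.396 and 6.55 RPKM in vivo and 24.8, 30.8 and 33.7 RPKM in NTC embryos, and was called without in vivo replicate 1 (adjusted p = 0.0021) but not with it (adjusted p = 0.075). Of 22 interferon and innate immune genes, Ifit1bl2, of the interferon-induced tetratricopeptide repeat family, was higher (33.7, 47.8 and 58.8 RPKM in vivo, 341, 339 and 295 RPKM in NTC embryos, 2.80 ± 0.29, adjusted p = 0.01). NTM embryos had 118 to 244 RPKM. Of 20 such genes tested without in vivo replicate 1, 4 were higher and 0 lower. The median of the interferon list was 0.34 with 6 libraries and -0.055 without in vivo replicate 1, where it was 0.15 over all genes. None of 25 genes of the actin cytoskeleton was called with 6 libraries, and 2 were higher without in vivo replicate 1.

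Of 35 proteasome genes, Psmc1, an ATPase of the regulatory particle, was higher (11.7, 18.96 and 13.1 RPKM in vivo, 84.1, 113 and 114 RPKM in NTC embryos, 2.76 ± 0.32, adjusted p = 0.0155), and without in vivo replicate 1 there were 7 higher and 4 lower of 34. None of 70 nuclear respiratory subunits, 22 glycolysis genes or 14 mitochondrial genes was called with 6 libraries, with medians of 0.09, 0.70 and -0.64. Without in vivo replicate 1 there were 5 higher and 5 lower respiratory subunits, 3 higher and 0 lower of 23 glycolysis genes, and 0 higher and 1 lower of the mitochondrial genes. The mitochondrial median was -0.29 without in vivo replicate 1, the library with the largest mitochondrial share.

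Lists for other cell types and for strain were mostly low. Of the 40 cumulus and granulosa genes 10 passed the filter and none was called, and without in vivo replicate 1 Ctsl was called among 11. Of the 24 fibroblast genes 3 were tested and of the 32 sperm transcripts likewise 3, and none was called, whereas without in vivo replicate 1 there was 1 lower fibroblast gene and no sperm transcript. No sex-linked gene passed the filter. Of 2 tested genes whose copy number is known to differ between C57BL/6 and DBA/2 mice, Alad, an enzyme of haem synthesis, was higher (0, 0.211 and 0.0884 RPKM in vivo, 6.55, 13.4 and 20.8 RPKM in NTC embryos, 3.60 ± 0.51, adjusted p = 0.0259) and Glo1 was not called. Alad averaged 43.1 RPKM in CCs, and its part in a strain difference between the egg donors was not tested.

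**Figure D5:**
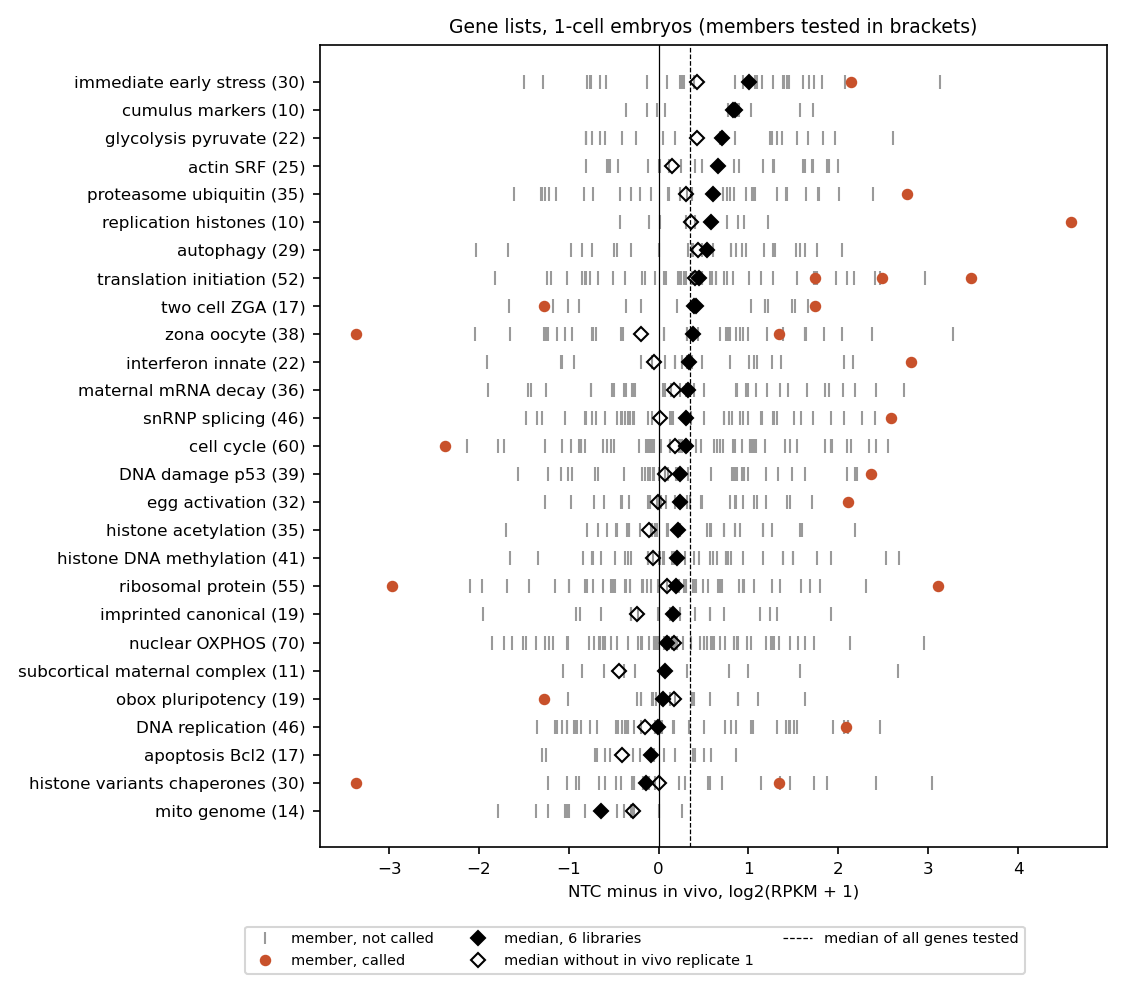
Log2 differences (log2(RPKM + 1) scale) of list members between NTC and in vivo 1-cell embryos, for lists with at least 10 members tested. Grey ticks are members not called, red points called members, filled diamonds the list medians with 6 libraries, open diamonds those without in vivo replicate 1, and the dashed line the median of all genes (0.34). Each list shown holds members on both sides of 0 and at most 3 called members.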

How the data were processed

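RNA of single embryos, with spike-in RNA that is not analysed here, was reverse transcribed, tailed, amplified by PCR and sequenced in pairs. No molecular identifiers were used, so counting error is a lower limit of the technical error. The study aligned the reads with TopHat and Bowtie2, counted them with HTSeq, and the authors deposited RPKM values per gene, whereas the submitters' processing notes name Bowtie 0.12.2 and mm8. The strand of the counting is not given in the sources used here. The labels say that embryos of a stage came from at least 3 independent experiments, and each library is 1 sample.

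Here genes with a mean of at least 0.5 RPKM were tested on log2(RPKM + 1) with limma 3.58.1 (R 4.3.3), with a variance trend, the 3 NTC and 3 in vivo libraries in the fit and no covariate. P-values were adjusted over all genes tested by Benjamini-Hochberg. Fold changes on this scale understate those of low genes. Symbols, positions and lengths were those of GENCODE M21 (GRCm38). Near-identical copies were found with BLAST 2.17.0, and Python 3.11.15 with pandas 2.3.3 and numpy 2.4.6 made the tables. RPKM steps gave back whole reads within 0.01, from which depth and a limma-voom fit were computed. The alternatives were another pseudocount, filter, scaling, set of libraries, model or fold threshold, a replicate block, and each library left out. The fit was tested on simulated data.

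The comparison and the gene lists were chosen with earlier results of these data known. Genes were named by rule as the 15 largest differences in each direction among called genes, called list members, the 3 most abundant members of each list (of which a part is described), genes called with each library left out, and markers. Other genes named were chosen after their values were seen. The result of 1 list member is not reported here.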

Additional observations from a re-analysis of the deposited data

How the results depend on the processing

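Counts of genes depended on the processing. The 126 called genes kept their sign with each library left out, which groups without overlap guarantee. Against 126 genes (107 higher, 19 lower), a pseudocount of 0.1 gave 81 with 9 lower, no filter on low values gave 14 with 14 higher and 0 lower, median-ratio scaling 60 (51 and 9), a fit over the 9 libraries of 1-cell embryos 572 (446 and 126) and a fit over all 20 groups 1023 (806 and 217). Leaving out each library gave 1 to 1524 genes, 1 to 995 higher and 0 to 529 lower. A filter at a mean of 2 RPKM gave 146 genes, leaving out mitochondrial genes 126, limma-voom on whole reads 172, and no fold threshold 126. Of the list members, 14 were higher and 4 lower. A pseudocount of 0.1 gave 7 higher, no filter 2 and 0, median-ratio scaling 5 and 1, the 9 libraries 45 and 19, the 20 groups 61 and 19, and leaving out each library 0 to 100 and 0 to 67.

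The median log2 difference of all genes was 0.63 with a pseudocount of 0.1 and 0.68 with limma-voom. The difference in mitochondrial share ran from -4.35 to 0.00566 percentage points with each library left out and turned positive without in vivo replicate 1. With a replicate block there were 9 genes, 8 higher and 1 lower, among list members 0 higher and 1 lower. Whether replicate numbers pair the libraries was not settled. Deviations from the group means correlated at 0.0895, 0.0512 and 0.0306 for equal numbers and at -0.0858 to 0.0606 for unequal numbers. NTC replicate 2 correlated better with in vivo replicate 3 (0.0606) than with its own number.

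Directions changed for genes that were not called. With median-ratio scaling log2 differences were -0.025 for Atg5, -0.31 for Eed, -0.27 for Eif3e, -0.12 for Kat7, -0.20 for Mest, -0.082 for Nfkbia, -0.028 for Nlrp14, -0.11 for Psme3, -0.28 for Rgs2, -0.17 for Sf3b1, -0.098 for Ube3a and -0.094 for mt-Co1, and with limma-voom 0.014 for Birc5. With each library left out they ran from -0.58 to 0.093 for Atg12, -0.44 to 0.56 for Birc5, -0.47 to 0.24 for Bmpr1b, -0.15 to 0.23 for Eed, -0.16 to 0.25 for Eif3e, -0.61 to 0.19 for Eif4e3, -0.55 to 0.80 for Ldhc, -0.052 to 0.29 for Mest, -0.26 to 0.54 for Nfkbia, -0.88 to 1.08 for Nlrp14, -0.77 to 1.05 for Rdx, -0.14 to 0.43 for Rgs2, -0.61 to 0.65 for Sf3b1, -0.13 to 0.057 for Sin3a, -0.64 to 0.053 for Snrnp27, -0.26 to 0.0058 for Suz12, -1.24 to 0.38 for Tle6, -0.92 to 0.81 for Ube3a and -1.11 to 0.52 for mt-Rnr2. The cause of these changes was not tested. Of 64 named called genes under all alternatives, 497 values stayed past the threshold and 462 did not, none with another sign. Where a library was left out, the sign was fixed in advance by the lack of overlap.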
